A study of Homo sapiens with 4 samples.

Results

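UMUC3 cells carrying a BCUC-1 plasmid were compared with UMUC3 cells carrying the empty vector, which are 2 of the 4 RNA sequencing libraries of the study. UMUC3 is a human bladder cancer cell line, and BCUC-1 is the circular RNA hsa_circ_0001361, made from exons of FNDC3B. Both UMUC3 groups were stably transfected and grown in the same serum-supplemented medium, and the plasmid is the only difference stated. Whether the cells were pooled or came from 1 clone is not given in the sources used here. The other pair holds T24T, an invasive derivative of the T24 bladder cancer line, with the same plasmids, and shares no library with the UMUC3 pair. Per its design text, the study looked for genes that BCUC-1 regulates.

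Each group held 1 library, so there was no replicate check, no test across genes was possible, and every difference below compares 2 libraries. Reads assigned to genes numbered 26497894 with vector and 22730112 with BCUC-1. Of 32973 listed genes, 12156 had at least 200 reads summed over the pair, and 12074 of these had a known GC content and are described. The floor lay in a dense region, with 672 genes from 150 reads up to the floor and 542 between the floor and 250. Differences are log2 ratios of reads per 1000000 assigned reads (RPM), BCUC-1 against vector, and brackets hold 95% intervals of a ratio. These intervals cover counting error only.

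Circular RNAs form when a downstream splice donor joins an upstream acceptor, and the lack of free ends makes them resistant to exonucleases. Some bind microRNAs and thereby relieve the repression of messenger RNAs with matching sites. Others bind proteins or stay in the nucleus near their host gene. The circle BCUC-1 has been reported to bind miR-491-5p, with the gelatinase gene MMP9 as the target. The seed of this microRNA (bases 2 to 8, in capitals) and the matching bases in the MMP9 3′ untranslated region (in capitals) are shown because that pairing defines the one group of genes tied to the circle by sequence.
hsa-miR-491-5p: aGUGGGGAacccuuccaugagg
MMP9, chr20:46016387-46016416, plus strand, GRCh38: gcagtgccatgtaaaTCCCCACtgggacca

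MMP9 itself stood below the read floor and was higher in the BCUC-1 library. Its reads were 37 in the vector library and 137 in the BCUC-1 library, or 0.598 and 2.58 reads per kilobase of gene and 1000000 assigned reads (RPKM). After removal of the GC trend described next, the ratio was 3.77 (2.61 to 5.58). The T24T libraries counted 2 and 27 MMP9 reads, which gives 13.8 (3.47 to 120). MMP9 shares exon sequence with the listed gene RP11-465L10.10, whose reads cannot be separated from its own. The host gene FNDC3B had 2206 and 1868 reads, a GC-corrected log2 difference of 0.02, and this gene-level value does not measure the circle.

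The widest pattern in the UMUC3 pair followed base composition. GC-rich transcripts were higher and AT-rich transcripts were lower in the BCUC-1 library. Among 10 equal groups of genes, the median log2 difference was -0.164 in the group with GC content up to 38.3% and 0.201 in the group from 60.9% upwards. Only 12.8% of the genes in the lowest group lay above 0, against 88.3% in the highest. In T24T the same end groups had medians of -0.035 and -0.028. Across the 12074 UMUC3 genes, Spearman's rho between GC content and difference was 0.601, against 0.031 across 12433 T24T genes. These correlations are across genes of 1 library pair, which are not independent replicates. Within protein-coding genes, rho was 0.648 for the longest transcript, 0.571 for its coding sequence and 0.581 for its 3′ untranslated region.

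**Figure D1:**
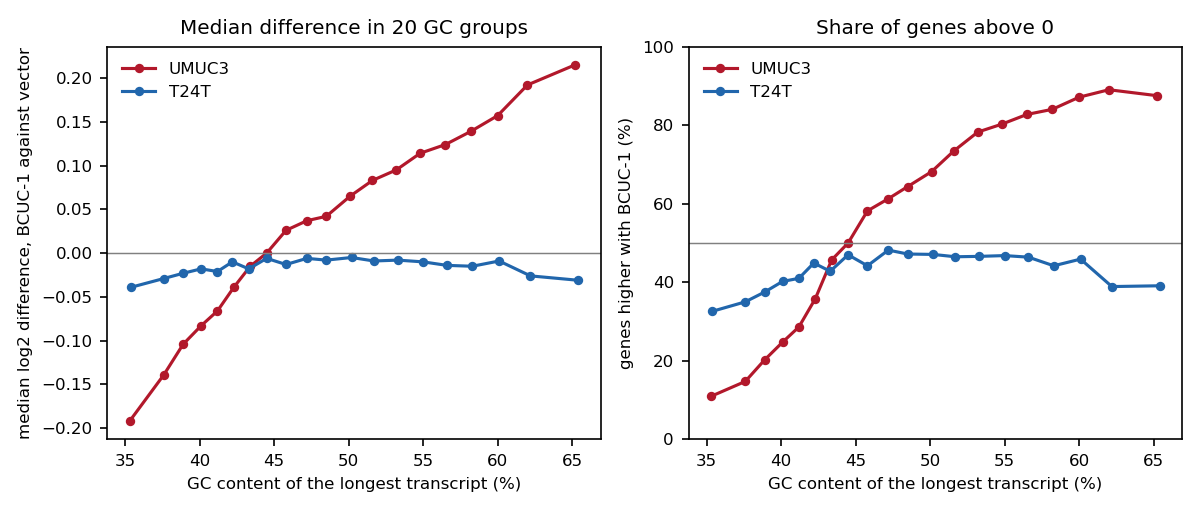
Median log2 difference, BCUC-1 against vector (left), and percentage of genes above 0 (right) in 20 groups of equal size, plotted against the median GC content of the longest transcript. The UMUC3 median climbed from -0.192 to 0.215 and the T24T median stayed near 0.

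The trend alone moved many genes by the size of the differences reported below. PSMD14, a deubiquitinase of the proteasome with 32.0% GC, had 4987 and 4270 reads, a difference of 0.00 as measured and 0.19 after the trend was removed. FKBP8, an anchored immunophilin of the mitochondrial outer membrane with 66.6% GC, went from 0.17 to -0.05. FASN, the fatty acid synthase, went from 0.29 to 0.07. MAGOHB, an exon junction complex subunit with 34.6% GC, went from -0.27 to -0.08. These 4 genes were among those the correction moved most. They show how a list of genes with one base composition shifts as a whole before correction. Whether the dependence on GC content arose in the cells or in the making of the libraries cannot be told apart, since each group had 1 library.

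With the trend removed (the median in 20 GC groups, interpolated and subtracted), a gene was counted as higher or lower where its log2 difference was at least 0.322 either way, before rounding to 2 decimals, and the interval of the ratio did not hold 1. By this rule 201 of 12074 genes (1.66%) were higher and 239 (1.98%) were lower in the BCUC-1 library. Without the correction 573 (4.75%) were higher and 345 (2.86%) lower, so the share of higher genes among those counted was 45.7% with the correction and 62.4% without it. With a trend on gene length removed as well, an alternative added after seeing the data, 228 were higher and 209 lower, a share of 52.2%. In T24T the same rule, with the trend of its own pair removed, gave 67 of 12433 genes higher (0.539%) and 227 lower (1.83%). The intervals are per gene and not adjusted for the number of genes.

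Most of these genes had few reads. Of the 7444 genes with at least 1000 reads, 27 were higher and 71 lower, and 3 and 2 passed 1.5-fold. Even so the UMUC3 pair spread more widely than counting gives. Among genes with at least 10000 reads the SD of the corrected differences was 0.109, against 0.057 in T24T and a counting SD of 0.022 in both pairs.

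**Figure D2:**
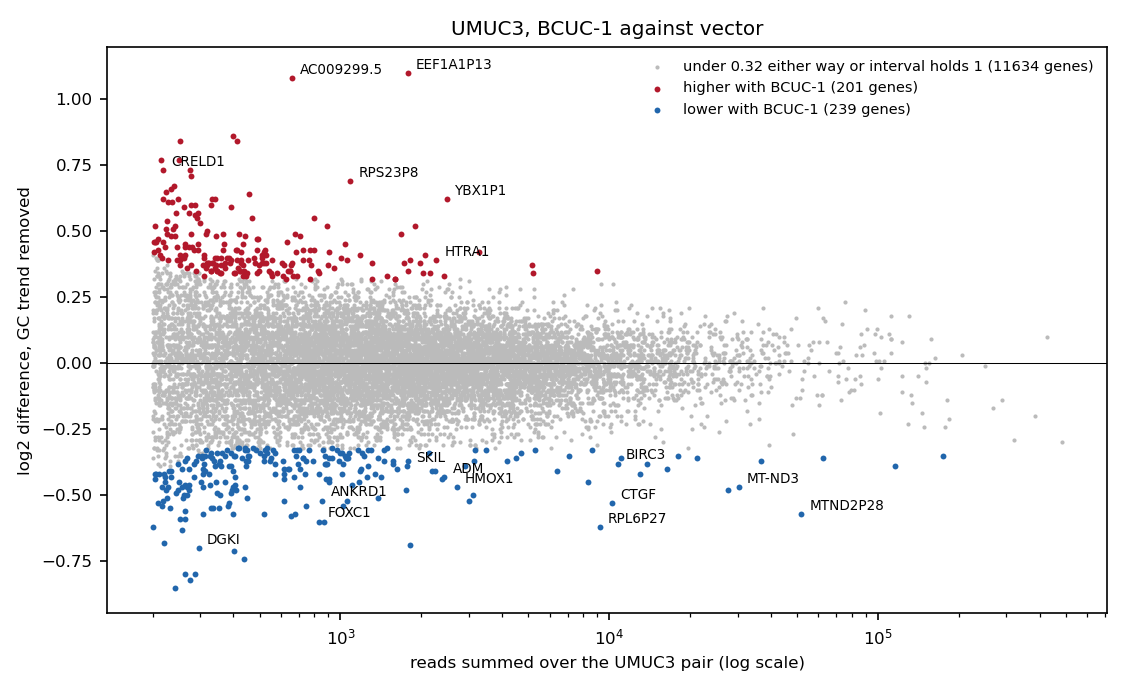
GC-corrected log2 difference of 12074 genes in UMUC3 against the reads summed over the pair (log axis), with genes counted as higher in red and lower in blue. The cloud narrows to the right, and pseudogenes take the highest positions.

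Of 7031 protein-coding genes with at least 1000 reads, 40 were lower and 11 higher. CTGF, a matricellular protein and a classic target of YAP and TEAD, had 6289 reads in the vector library and 3952 in the BCUC-1 library, or 101 and 74.3 RPKM. Its corrected ratio was 0.693 (0.665 to 0.721), a log2 difference of -0.53. HMOX1, the heme oxygenase induced by oxidative stress, had 1609 and 1094 reads and a ratio of 0.720 (0.667 to 0.778). In T24T these genes were far less abundant and did not pass the rule, at 632 and 659 reads for CTGF and 151 and 176 for HMOX1. PET100, an assembly factor of cytochrome c oxidase, had 1884 and 1236 reads (-0.50), and shares exons with CTD-3214H19.4 (-0.52), so these count many of the same reads. RP11-761B3.1 (-0.45) likewise overlaps the calmodulin gene CALM2.

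Among the higher protein-coding genes with at least 1000 reads, HTRA1, a secreted serine protease, had 1013 and 1259 reads, a corrected ratio of 1.31 (1.21 to 1.43). LRP1, an endocytic receptor that clears proteases and their inhibitors, had 807 and 1015 reads, a ratio of 1.31 (1.20 to 1.44). ABCA2, a lipid transporter of the lysosome, had 753 and 969 reads, a ratio of 1.30 (1.18 to 1.43). All 3 are GC-rich, at 58.4% to 63.7%, and as measured their log2 differences were larger, at 0.53, 0.55 and 0.59. THAP2, a THAP-domain protein gene with 38.9% GC, had 575 and 611 reads and moved the other way on correction, from 0.31 to 0.41. In T24T the differences were -1.08 for HTRA1 on 43 and 20 reads, -0.22 for LRP1 and -0.17 for ABCA2.

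Among genes with 200 to under 1000 reads the differences were larger and less precise. DGKI, a diacylglycerol kinase, had 199 and 98 reads, a corrected ratio of 0.614 (0.477 to 0.786), and 0 reads in both T24T libraries. FOXC1, a forkhead transcription factor, had 517 and 318 reads, a ratio of 0.659 (0.571 to 0.759). The noncoding LINC01322 had 262 and 140 reads and KAZN, a cell junction protein gene, had 124 and 76. The higher genes of this range included CRELD1, a membrane protein of the endoplasmic reticulum, with 86 and 133 reads. Its ratio as measured was 1.80 (1.36 to 2.39), a log2 difference of 0.85, which was 0.73 after the correction. GLUD2, an intronless glutamate dehydrogenase copied from GLUD1, had 114 and 164 reads, a ratio of 1.63 (1.28 to 2.09). Of the 10 highest in this range, 6 were pseudogenes, and all 6 are given below.

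Transcripts of the mitochondrial genome were lower as a group. The human mitochondrial genome is transcribed from both strands as long precursors, from which tRNAs are cut out to release the messenger and ribosomal RNAs of the respiratory chain and the mitochondrial ribosome. All 37 mitochondrial genes lay below 0 in UMUC3, before and after the GC correction, with a median log2 difference of -0.31 before and -0.24 after. By the rule, 13 of the 37 were lower and 0 higher, beside 1.98% lower among all genes. In T24T 30 of 37 lay below 0, with a median of -0.027, and 1 was lower. The mitochondrial share of all reads was 6.33% with vector and 5.30% with BCUC-1, against 3.92% and 3.84% in T24T. Fewer mitochondria, less transcription, faster decay and a difference in the making of the libraries cannot be told apart from these values.

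The extent differed along the genome. MT-ND3, a complex I subunit, had 19080 and 11181 reads and the lowest ratio of the 37, 0.723 (0.706 to 0.740). Among protein and ribosomal RNA genes, MT-ND4L followed at -0.39, the large ribosomal RNA MT-RNR2 at -0.36 and MT-ND1 at -0.35. The cytochrome oxidase subunits were nearest to 0 among the protein and ribosomal RNA genes, at -0.17 for MT-CO1, -0.11 for MT-CO2 and -0.19 for MT-CO3. The other complex I genes lay between these and MT-ND1, with MT-ND4 at -0.20, MT-ND2 at -0.23, MT-ND6 at -0.24 and MT-ND5 at -0.30. Of the 22 tRNA genes 9 were lower, and of the 15 protein and ribosomal RNA genes 4 were. MT-TG, the glycine tRNA next to MT-ND3, had 1541 and 852 reads (-0.44), MT-TK, the lysine tRNA, had 8326 and 4672 (-0.42), and MT-TS1, a serine tRNA encoded on the other strand, had 8188 and 5592 (-0.38). MT-TN, the asparagine tRNA on that strand, had 6971 and 5533 reads and lay at -0.04. The sequences of 3 of these tRNA genes, in lower case throughout, show that low values occurred at 26.5% GC in MT-TG and at 49.3% GC in MT-TS1, while MT-TN, at 41.1%, lies between them.
MT-TG, chrMT:9991-10058, plus strand, GRCh38: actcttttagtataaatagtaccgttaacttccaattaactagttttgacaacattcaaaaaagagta
MT-TS1, chrMT:7446-7514, minus strand, GRCh38: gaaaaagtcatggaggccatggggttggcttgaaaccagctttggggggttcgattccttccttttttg
MT-TN, chrMT:5657-5729, minus strand, GRCh38: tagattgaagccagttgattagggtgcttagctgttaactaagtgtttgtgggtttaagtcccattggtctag

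**Figure D3:**
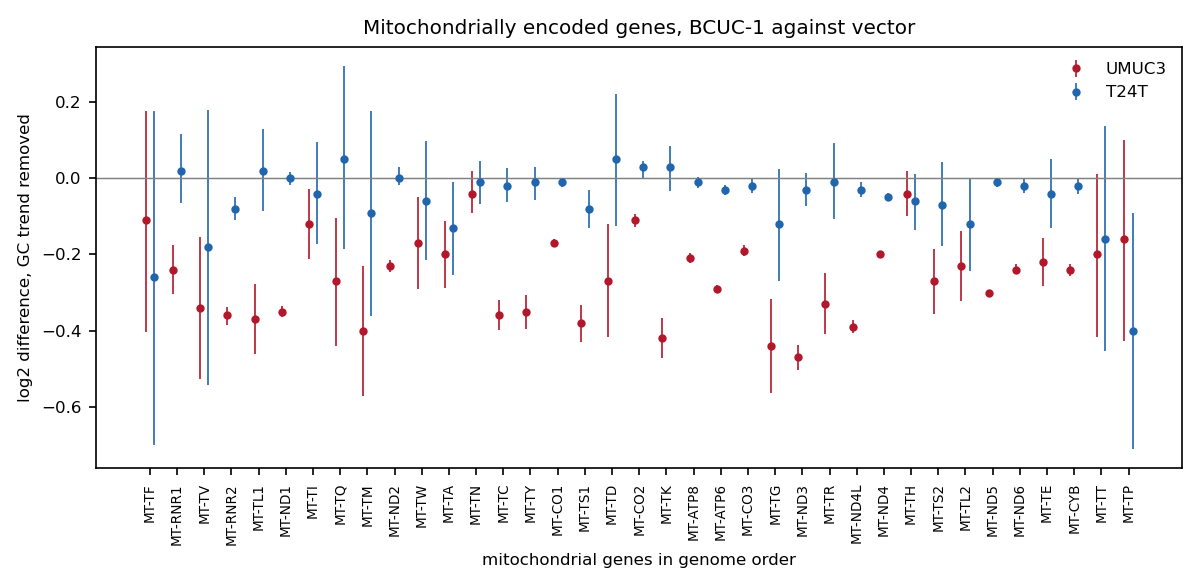
GC-corrected log2 differences, BCUC-1 against vector, of 37 mitochondrial genes in genome order for UMUC3 (red) and T24T (blue), with 95% counting intervals. All UMUC3 points lie below 0, from -0.47 at MT-ND3 to -0.04 at MT-TN and MT-TH.

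Nuclear genes that serve the mitochondrial genome did not show the same shift. Of 24 genes for mitochondrial transcription and RNA maturation, 0 were higher or lower, with 12 above 0, a median of 0.003 and a range of -0.22 (TRMT10C, a subunit of mitochondrial RNase P) to 0.15 (POLG2, the accessory subunit of the mitochondrial DNA polymerase). TFAM, which packages mitochondrial DNA and starts its transcription, lay at -0.07, and POLRMT, the mitochondrial RNA polymerase, at -0.04. Of 55 nuclear-encoded respiratory chain subunits, 0 were higher or lower and 35 lay below 0 (6053 of all 12074 genes), with a median of -0.061. The lowest of them was NDUFA1 (-0.28), a complex I subunit, and the highest was ATP5C1 (0.26), a subunit of ATP synthase.

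Processed pseudogenes, which are intronless copies of messenger RNAs inserted elsewhere in the genome, were counted more often than protein-coding genes. Of 181 described, 34 (18.8%) were higher and 13 (7.18%) were lower, beside 1.66% and 1.98% of all genes. In T24T 4 of 175 were higher and 3 lower. The SD of their corrected differences was 0.311 in UMUC3 and 0.163 in T24T. Of 10507 protein-coding genes, 0.999% were higher and 1.35% lower. Read numbers differed, with a median of 474 for the processed pseudogenes and 1694 for the protein-coding genes. Of all 2378 UMUC3 genes with 200 to under 500 reads, 131 were higher and 113 lower. Of 52 processed pseudogenes with at least 1000 reads, 6 were higher and 6 lower (11.5% each), beside 27 and 71 of 7444 genes. The shares were not compared at matched read numbers. A read from a pseudogene can come from its parent gene, and how reads with several matches were assigned is not given in the sources used here.

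EEF1A1P13, a copy of the translation elongation factor gene EEF1A1 on chromosome 5 (14651941 to 14653329, minus strand, GRCh38), had the highest difference among genes with at least 1000 reads. Its reads were 615 in the vector library and 1164 in the BCUC-1 library, a ratio of 2.15 (1.95 to 2.37), and 586 and 607 in T24T. Its parent EEF1A1 had 218231 and 205319 reads in UMUC3, a log2 difference of 0.10. Other copies of the same parent went different ways, with EEF1A1P5 at -0.10, EEF1A1P6 at 0.07 and EEF1A1P19 at 0.77 on 100 and 150 reads. Under the read floor, EEF1A1P14 (58 and 106 reads) and EEF1A1P9 (58 and 104) lay at 1.06 and 1.02. EEF1A1P4 lay at 0.29, EEF1A1P11 at 0.10 and EEF1A1P12 at -0.47 there. The 1389 bases of EEF1A1P13 are 98.1% identical to the EEF1A1 transcript. The stretch from base 84 to base 173 of the copy is shown with the matching stretch of the parent, and capitals mark the 5 bases that differ. No stretch of this length holds more differences, and 26 of all 1389 aligned columns differ. A read is therefore placed by few bases even here, and by fewer in most of the copy.
EEF1A1P13: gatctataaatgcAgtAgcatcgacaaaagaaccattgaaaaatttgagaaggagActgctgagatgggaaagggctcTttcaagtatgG
EEF1A1: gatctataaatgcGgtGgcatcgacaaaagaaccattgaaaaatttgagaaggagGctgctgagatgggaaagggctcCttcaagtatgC

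Some other pseudogenes also lay apart from their parents. They were picked for large differences or after their values were seen, so distance from the parent was partly set by that choice. YBX1P1 had 1024 and 1469 reads (0.62), and its parent YBX1, a cold-shock domain RNA-binding protein, lay at 0.09. RPS23P8 had 459 and 628 reads (0.69), and RPS23, a ribosomal protein gene, lay at 0.04. On the lower side RPL6P27 had 5865 and 3346 reads (-0.62) and RPL14P1 had 3829 and 2577 (-0.41), with the parents RPL6 and RPL14 at -0.01 and 0.13. RPL41P1 and RPL41P5 are each 100% identical over their length to RPL41, and yet lay at -0.41 and 0.23, with the parent at 0.19. RPL39P5, the lowest gene with at least 1000 reads, had 1173 and 640 reads (-0.69), but it shares exons with AMOTL2 and is 74.8% identical to RPL39. Nuclear copies of mitochondrial genes lay lower than the genes themselves in 2 of 4 cases, at -0.57 for MTND2P28 against -0.23 for MT-ND2 and -0.51 for MTND6P4 against -0.24 for MT-ND6, while MTATP6P1 (-0.15) and MTCO1P12 (0.13) lay higher than MT-ATP6 (-0.29) and MT-CO1 (-0.17). In the range of 200 to under 1000 reads, AC009299.5 had 213 and 447 reads (1.08), TBCAP1 had 160 and 238 (0.86), RP11-641D5.1 had 166 and 245 (0.84), RWDD4P1 had 91 and 124 (0.77) and AC000041.8 had 112 and 164 (0.73).

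**Figure D4:**
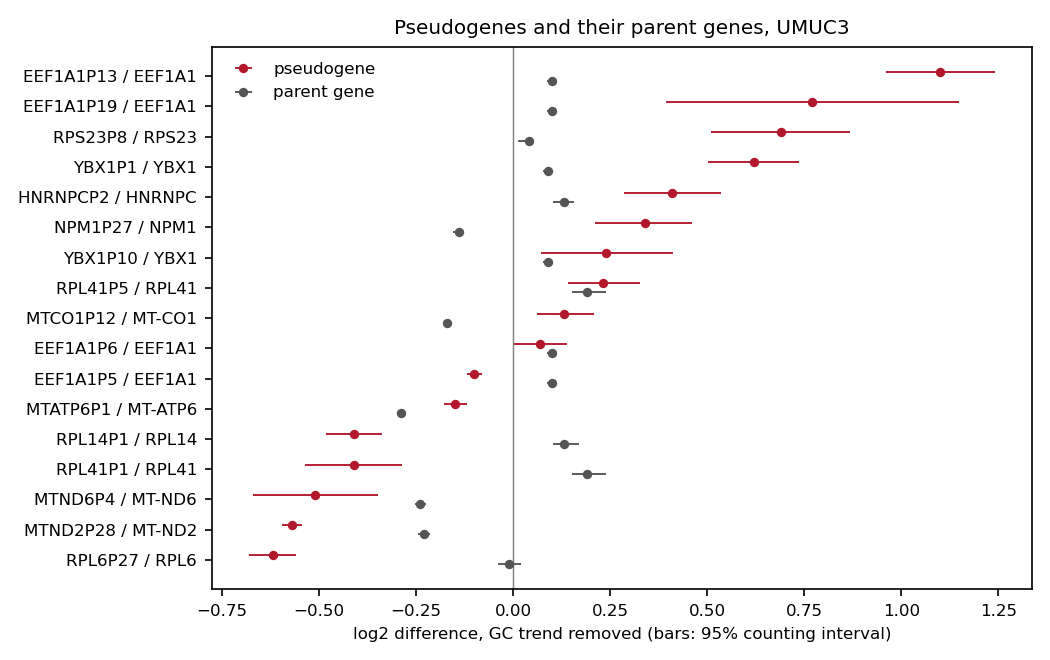
GC-corrected log2 differences in UMUC3 of 17 pseudogenes (red) and of their parent genes (grey), with 95% counting intervals, ordered by the pseudogene. The pseudogenes run from -0.62 to 1.10 while the parents lie between -0.29 and 0.19. These pseudogenes were picked for large differences or after their values were seen, so their wider range partly reflects that choice.

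Antisense genes were also counted often, at 35 higher (4.9%) and 41 lower (5.74%) of 714, beside 1.66% and 1.98% of all genes. In T24T 7 of 731 were higher and 24 lower. The antisense genes described in UMUC3 had a median of 496 reads. Of all 2378 UMUC3 genes with 200 to under 500 reads, 131 were higher and 113 lower. Whether antisense genes differ from others with as many reads was not tested. Of the 76 antisense genes counted in UMUC3, 75 overlap an exon of another listed gene, as do 693 of all 714 (97.1%). No strand-specific counting is stated, so their reads cannot be separated from those of the partner. Examples are PLCG1-AS1 (-0.48, overlapping PLCG1 and TOP1) and RP11-521B24.5 (0.42, overlapping MTA1).

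Targets of the transcriptional coactivator YAP, which acts through TEAD factors downstream of the Hippo kinases and of cell shape, were split. Of 18 described, 0 were higher and 2 lower, beside 1.66% and 1.98% of all genes. The median was -0.044, beside 0.00 for all genes described. The 2 lower genes were CTGF and ANKRD1, a nuclear ankyrin-repeat cofactor, which had 538 and 317 reads and a ratio of 0.695 (0.603 to 0.80). AMOTL2, an inhibitor of YAP that is also its target, had 8362 and 6459 reads (-0.28). CYR61, the matricellular relative of CTGF, had 8849 and 6672 reads (-0.25). Neither of these reached 0.322. MYOF, a membrane repair protein, and AXL, a receptor tyrosine kinase, lay at 0.12 and 0.11. In T24T the median of the list was 0.123 with 17 of 20 above 0 (6210 of all 12433 genes). ANKRD1 was higher there, at 145 and 184 reads (0.37).

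The promoters of the 2 lower genes, from 250 bases before to 50 bases after the RefSeq start, are shown with the core TEAD motif GGAATG in capitals (both strands searched). CTGF holds 3 matches and ANKRD1 holds 2. Of the 20 genes of the list, 15 matched a RefSeq symbol, with 18 promoters, of which 9 hold at least 1 match and 3 hold 2 or more. The third of these is that of NUAK2, a kinase gene, which lay at 0.26. AMOTL2 holds 0 and 1 at its 2 starts, and MYOF holds 0. Of 35116 promoters of this length, 14.03% hold at least 1 match and 1.373% hold 2 or more. A match describes letters and is no evidence of binding. The sequences are credited to RefSeq on GRCh38.p14.
CTGF, chr6:131951323-131951622, minus strand: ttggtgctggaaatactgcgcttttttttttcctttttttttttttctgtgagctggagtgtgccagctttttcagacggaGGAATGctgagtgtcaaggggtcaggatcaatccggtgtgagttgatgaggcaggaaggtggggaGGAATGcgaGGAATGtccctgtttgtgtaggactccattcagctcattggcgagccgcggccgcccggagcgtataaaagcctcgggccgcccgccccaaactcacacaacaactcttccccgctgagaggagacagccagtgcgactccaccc
ANKRD1, chr10:90921038-90921337, minus strand: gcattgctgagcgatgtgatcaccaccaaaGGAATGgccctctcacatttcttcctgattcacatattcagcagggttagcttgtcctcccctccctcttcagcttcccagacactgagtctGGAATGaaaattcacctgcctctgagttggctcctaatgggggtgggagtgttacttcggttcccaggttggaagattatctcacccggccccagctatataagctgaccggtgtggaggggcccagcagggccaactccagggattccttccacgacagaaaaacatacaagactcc

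Targets and components of TGF-beta signalling, which acts through SMAD factors, were mostly below 0. Of 15 described, 12 lay below 0 (6053 of all 12074 genes). By the rule 1 was lower and 0 were higher, beside 1.98% and 1.66% of all genes. The median of the list was -0.125, and it was -0.007 before the GC correction. The lower gene was SKIL, a SMAD corepressor induced by the pathway, with 1129 and 646 reads and a ratio of 0.762 (0.691 to 0.840). PMEPA1, a feedback inhibitor, lay at -0.30 and TGFBI, a secreted matrix protein, at -0.27. The ligand gene TGFB1 lay at 0.07. In T24T the median of the list was -0.021.

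Of 21 NRF2 target and glutathione genes, with a median of -0.009, 0 were higher and 2 lower, beside 1.66% and 1.98% of all genes. The 2 were HMOX1 and OSGIN1, an oxidative stress-induced growth inhibitor, with 159 and 114 reads (-0.46). GCLM, the modifier subunit of the glutathione-forming ligase, lay at -0.26 and TXNRD1, the thioredoxin reductase, at -0.19 on 58154 and 43859 reads. Other defining targets were near 0, with NQO1 at 0.00 and SRXN1 at 0.11. The list therefore held 2 lower genes and a centre at 0.

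Of 20 NF-kB targets, with a median of -0.047, 1 was higher and 1 lower, beside 1.66% and 1.98% of all genes. BIRC3, an inhibitor of apoptosis and ubiquitin ligase, had 6811 and 3939 reads, or 34.2 and 23.1 RPKM, and a ratio of 0.770 (0.740 to 0.801). BCL3, a nuclear IkB protein, had 178 and 225 reads, a ratio of 1.27 (1.04 to 1.55). The chemokine gene CCL2 lay at -0.35 on 135 and 89 reads, but its interval held 1 (0.595 to 1.04). CXCL1, another chemokine gene, had 639 and 447 reads and a ratio of 0.803 (0.710 to 0.908), just short of the size the rule asks for. NFKBIA, the feedback inhibitor, lay at -0.04 and CXCL8 at 0.08. Of 20 death regulators, with a median of -0.038, 1 was higher and 2 lower, beside the same shares of all genes. BIRC3 was lower, as was DIABLO, which antagonizes such inhibitors once released from mitochondria (853 and 635 reads, -0.32). CASP9, the initiator caspase of the mitochondrial pathway, was higher on 90 and 113 reads (0.46). CYCS, cytochrome c, lay at -0.31 and BIRC2, the neighbour and relative of BIRC3, at -0.23.

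Genes that build or remodel the matrix were near 0 once base composition was removed. Of all 12074 genes, 1.66% were higher, 1.98% were lower and 6021 lay above 0. Of 25 collagens, laminins and matricellular genes, 2 were higher and 1 lower, and the median went from 0.231 to 0.035 on correction. The higher genes were FN1, fibronectin, with 377 and 393 reads (0.32), and COL5A1, a fibrillar collagen, with 149 and 182 (0.35). Of 15 genes above the floor in the list of metalloproteinases, inhibitors and related genes, 1 was higher and 0 lower, with 13 above 0 and a median of 0.054. The higher one was the serine protease gene HTRA1, so no metalloproteinase or metalloproteinase inhibitor above the floor was counted. MMP2, the other gelatinase, had 545 and 600 reads (0.24), MMP14, its activator at the membrane, lay at 0.03, and the inhibitor TIMP1 at -0.18. Of 11 genes of the plasminogen system, 1 (LRP1) was higher, with PLAU, the urokinase, at 0.10 and its receptor PLAUR at -0.19. Of 23 integrin and focal adhesion genes 0 were counted, with a median of 0.139 before and 0.075 after correction. Of 12 junction and mesenchymal regulator genes, 1 was lower, SNAI1, a repressor of E-cadherin, on 168 and 123 reads (-0.37), and VIM, vimentin, lay at 0.16.

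Metabolic and stress lists held few counted genes, beside 1.66% higher and 1.98% lower among all genes. Of 20 glycolysis genes, 0 were counted and 18 lay above 0 (6021 of all 12074 genes). The median of the list was 0.171 before and 0.061 after correction. The list was led by PGK1 (0.20), the lactate exporter gene SLC16A3 (0.19), PKM (0.18) and LDHA (0.17). T24T had 17 of 20 above 0 (6210 of all 12433 genes) and a median of 0.065. Of 17 hypoxia targets, 1 was lower, ADM, the vasodilator peptide adrenomedullin, on 1428 and 1004 reads (-0.43), and CA12, a carbonic anhydrase, lay at 0.26. Of 12 genes of metallothioneins and zinc transport, 1 was lower, with a median of -0.130. It was MT1X, a metal-binding metallothionein, on 915 and 647 reads (-0.38), and MT2A, its most abundant relative here, had 22498 and 16720 reads (-0.31). SLC30A1, a zinc exporter induced by the same metal-responsive factor, lay at -0.24, and that factor's gene, MTF1, at 0.09. Of 79 cytosolic ribosomal protein genes 1 was lower, RPS27, on 1881 and 1291 reads (-0.33).

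The remaining lists with at least 5 members described had 0 genes counted either way. They comprised G1/S and DNA replication (33 genes, median -0.040), G2/M and mitosis (33, 0.028), p53 targets (17, -0.016), interferon-stimulated genes (23, 0.048) and cholesterol and fatty acid synthesis (27, -0.013). Of the stress lists, ATF4 targets (25 genes) had a median of -0.069, chaperones of the endoplasmic reticulum (21) -0.022 and cytosolic chaperones (20) -0.005. Immediate early genes (22) had -0.061, EGF receptor family genes (9) -0.086, translation factors (26) 0.008, the proteasome (31) -0.011 and histones (12) 0.072. Within RNA metabolism, 17 of 19 genes of the microRNA machinery lay above 0 (6021 of all 12074 genes), with a median of 0.040. Circular RNA biogenesis and decay factors (19) had -0.013, SR proteins and their kinases (22) 0.041 and nuclear noncoding RNAs (16) -0.031. The 14 housekeeping genes had a median of 0.006.

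**Figure D5:**
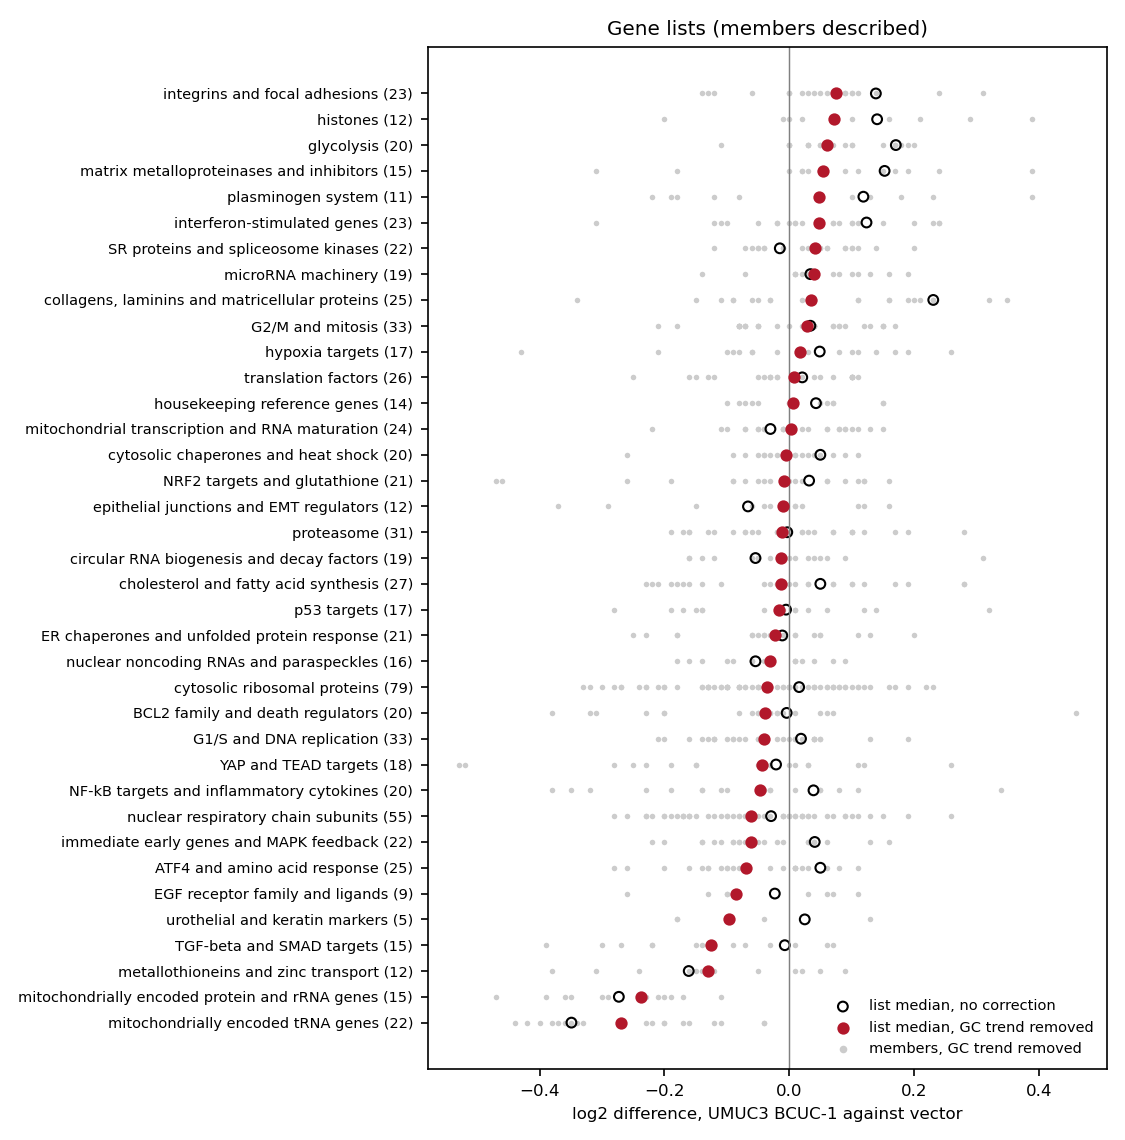
Log2 differences in UMUC3, BCUC-1 against vector, for gene lists with at least 5 members described (number in brackets). Open circles are list medians as measured, red circles the medians with the GC trend removed, and grey points the members. The mitochondrially encoded lists lie apart from the rest on the left, at -0.238 and -0.270.

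Of the urothelial and keratin list 5 of 24 genes reached the floor, and 5 had 0 reads in both libraries. KRT8 and KRT18, keratins of simple epithelia, had 2370 and 2068 and 3400 and 3078 reads. KRT80 had 653 and 671 reads, KRT7 had 324 and 281 and PPARG had 201 and 152. KRT5, CDH1 and UPK1B had 0 reads in both libraries, and GATA3 had 9 and 11. Fibroblast and endothelial markers summed to 225 and 231 reads with no gene above the floor, 4 of 14 genes being at 0 in both libraries. Of the leukocyte list only CD68, a lysosomal protein gene, was above the floor, at 6914 and 6193 reads (-0.05), and neuronal and neuroendocrine markers above it were SYP (-0.06), CHGB (0.04) and ENO2 (0.10).

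Genes whose messenger holds the miR-491-5p site TCCCCAC in the 3′ untranslated region (sense strand) had a corrected median near that of the others. A smaller share of them was counted as lower. Of 10283 protein-coding genes with a known 3′ untranslated region, 1898 (18.5%) hold the site. Their median was 0.076 as measured and 0.010 with the GC trend removed, and the 8385 genes without it had 0.020 and -0.002. With a site, 24 (1.26%) were higher and 13 (0.685%) lower, and without it 78 (0.930%) and 121 (1.44%). Of the 425 genes with 2 or more sites, 1.65% were higher and 0.706% lower. The genes with a site were more GC-rich, at a median of 51.7% against 46.8%, and their untranslated regions were longer, at 2630 against 1157 bases. In T24T the medians were -0.004 and 0.005.

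Few genes were counted in both lines. Of 11206 genes described in both pairs, 51 (0.455%) were higher and 146 (1.30%) were lower in T24T. Of the 157 that were higher in UMUC3, 1 was higher in T24T (0.637%, and 1 of the 51 T24T genes) and 5 were lower (3.18%, and 3.42% of the 146). Of the 191 lower in UMUC3, 7 were lower in T24T (3.66% and 4.79%) and 6 were higher (3.14% and 11.8%). The shares of the UMUC3 genes were thus at or above those of all 11206 genes, in the same and in the opposite direction. The 1 gene higher in both was AGFG2, an Arf-GTPase-activating-like protein gene, with 95 and 131 reads in UMUC3 (0.54) and 130 and 169 in T24T (0.40). Those lower in both included TRIM45, a ubiquitin ligase gene (-0.42 and -0.43), HSD17B14, a hydroxysteroid dehydrogenase gene (-0.49 and -0.42), and AKNA, an AT-hook protein gene (-0.34 and -0.33). Each interval of these ratios came close to 1 in at least 1 line. The upper ends in UMUC3 and T24T were 0.999 and 0.88 for TRIM45, 0.875 and 0.979 for HSD17B14, and 0.979 and 0.993 for AKNA. With 1 library per group, a test of the difference between lines leaves no residual degree of freedom.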

How the data were processed

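Total RNA came from a spin column kit, and libraries followed standard Illumina protocols, per the labels. The authors deposited one table with RPKM per gene and library, and a gene Length in bases, per the file headers. The aligner Bowtie, version 0.12.2, appears in the submitters' processing notes. Its role, the genome build, the annotation and how multiply matching reads were treated are details not given in the sources used here. Multiplied by length, 100% of the deposited RPKM values gave whole reads within 0.001 reads. Depths are sums over genes and can hold reads of overlapping genes more than once. Count models such as a negative binomial test were not used, since with 1 library per group no spread can be estimated.

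Ratios of reads per 1000000 assigned reads carry exact (Clopper-Pearson) 95% intervals, which cover counting error only since reads are not independent molecules. GC content is that of the longest GENCODE 29 transcript, matched by symbol for 10666 described genes, by the same span for 1362 and by 1 shared end for 46. Coordinates are on GRCh38, and 99.3% of the genes above the floor had a GC value. Names altered to dates by a spreadsheet (27 genes) stayed in the counts and were not named. The procedure was run on simulated libraries with counting error, a built-in GC trend and built-in changes. They held no spread beyond counting, so the run does not show how the rule behaves under the wider spread of the real pair. Python 3.11.15, numpy 2.4.6, pandas 2.3.3, scipy 1.17.1 and statsmodels 0.14.6 were used.

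The pair, the 40 gene lists and the rules were chosen with earlier results of these data known. Named genes were MMP9 and FNDC3B, the 15 largest differences each way at 1000 or more reads, the 10 each way at 200 to under 1000, the 10 each way that the GC correction moved most, list members, and parents of named pseudogenes. Further copies of EEF1A1, YBX1, NPM1, RPL14, RPL41 and mitochondrial genes, and the genes counted in both lines, were chosen after their values were seen. Single values of some list members are not reported here, though the list counts and medians include them.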

Additional observations from a re-analysis of the deposited data

Results flagged for a closer look

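In 5 named genes the rule counted opposite directions in the 2 lines, which was not tested, since each group held 1 library. Values are GC-corrected log2 differences, BCUC-1 against vector. NEAT1_2, a segment of 105 bases within the paraspeckle RNA NEAT1, lay at 0.45 in UMUC3 on 484 and 555 reads and at -0.62 in T24T on 212 and 136 reads, while NEAT1 as a whole lay at -0.06 in UMUC3. ADM, adrenomedullin, lay at -0.43 in UMUC3 and at 0.48 in T24T on 195 and 268 reads. BCL3 lay at 0.34 in UMUC3 and at -0.43 in T24T on 215 and 156 reads. ANKRD1 lay at -0.52 in UMUC3 and at 0.37 in T24T. MT1X lay at -0.38 in UMUC3 and at 0.45 in T24T on 261 and 352 reads, and it shares exons with RP11-343H19.2.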

How the results depend on the processing

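No paired analysis was possible because each group holds 1 library, and for the same reason none could be left out. The cause of the changes below was not tested. Genes higher and lower in UMUC3 numbered 201 and 239 as reported, and 228 and 209 with GC and length trends removed. They were 573 and 345 without GC correction (158 and 141 of the reported genes kept), 421 and 493 with equal medians and 496 and 413 with totals without mitochondrial genes, both uncorrected. Fewer genes were tested at 1000 reads or more (28 and 69), without exon overlap (96 and 97) and among protein-coding genes, a setting added after seeing the data (104 and 146), and more at 50 reads or more (340 higher). With log2(RPKM + 1) there were 92 and 120. T24T counts (67 and 227) became 4 and 28 at 1000 reads, 121 and 370 at 50 reads, 26 and 93 without overlap and 20 and 65 with log2(RPKM + 1), and 150 were lower among protein-coding genes.

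Processed pseudogenes (34 and 13) became 6 and 6 at 1000 reads and 74 and 21 at 50 reads, and 7 were lower at 500 bases or more. The 13 lower mitochondrial genes became 2 at 500 bases or more, 3 with protein-coding genes only, 23 with equal medians and 20 with totals without mitochondrial genes. The ratio of mitochondrial read shares moved from 0.837 to 0.846 over genes of at least 500 bases. With GC and length trends removed, also added after seeing the data, the median of mitochondrial protein and ribosomal RNA genes was -0.194, and the difference of medians with and without a miR-491-5p site went from 0.012 to 0.004. That difference was 0.056 in the 3 uncorrected settings.

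List medians that moved without GC correction went to 0.171 for glycolysis, 0.016 for ribosomal proteins, 0.039 for NF-kB targets, -0.007 for TGF-beta targets, 0.041 for immediate early genes, 0.231 for collagens, 0.139 for integrins, 0.019 for G1/S, 0.124 for interferon-stimulated genes, 0.050 for ATF4 targets, 0.050 for cytosolic chaperones and -0.004 for death regulators. With totals without mitochondrial genes they were 0.155 for glycolysis, 0.0 for ribosomal proteins, 0.023 for NF-kB, -0.023 for TGF-beta, 0.215 for collagens, 0.123 for integrins, 0.108 for interferon-stimulated genes, 0.035 for ATF4 targets, 0.034 for chaperones, -0.070 for circular RNA factors and -0.365 for mitochondrial tRNAs. With equal medians they were -0.381 for mitochondrial tRNAs, -0.061 for mitochondrial RNA maturation, 0.199 for collagens, 0.107 for integrins, 0.018 for ATF4 targets, -0.086 for circular RNA factors, 0.002 for the microRNA machinery and -0.047 for SR proteins. Without exon overlap the junction list was at -0.148.

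With 1 library per group, the spread between cultures is unknown, and no count above separates BCUC-1 from any other difference between the 2 libraries. At 200 to under 500 reads the counting SD was 0.164 on the log2 scale, so single genes in that range are imprecise.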

Other observations

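Apart from base composition, the GC-corrected differences in UMUC3 varied with gene length. In 6 equal groups by length the median log2 difference ran from -0.038 in the shortest to 0.023 in the longest, and in T24T from 0.020 to -0.025. The nuclear chromosomes had GC-corrected medians of protein-coding genes between -0.016 (chromosome 4) and 0.012 (chromosome 13), whereas the medians as measured ran from -0.053 on chromosome 4 to 0.125 on chromosome 19, whose genes had a median GC content of 59.1%. Small nucleolar RNA genes guide the modification of ribosomal RNA and mostly lie in introns of host genes. Of 20 described, 3 were higher and 3 lower, beside 1.66% and 1.98% of all genes, with an SD of 0.325. Their median was 320 reads, and the shares were not compared at matched read numbers. In T24T 0 of 14 were counted.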
